A study of Mus musculus with 6 samples.

Results

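The nuclear genes of oxidative phosphorylation were compared between MSR1 KO and MSR1 WT macrophages, complex by complex. The members were genes of the deposited table chosen by symbol, without rows marked as pseudogenes. They covered NADH dehydrogenase (Nduf), succinate dehydrogenase (Sdh), the cytochrome bc1 complex (Uqcr), cytochrome c oxidase (Cox4 to Cox8) and ATP synthase (Atp5). Ndufab1 and the Ndufaf genes were not members, although their symbols begin with Nduf. They were described with the complex I assembly list, so complex I is given here without Ndufab1. This selection gave 84 of 52550 genes, with 37 in complex I, 4 in complex II, 8 in complex III, 18 in complex IV and 17 in complex V. Of these, 79 had enough counts to be tested, and the other 5, all of complex IV, are Cox4i2, Cox6b2, Cox7b2, Cox8b and Cox8c. All 84 lie in the nuclear genome, on 19 chromosomes.

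Both groups were macrophages grown from C57BL/6 bone marrow for 7 days with 25 ng/ml M-CSF, the growth factor that drives macrophage differentiation, and then kept for 48 h across a transwell membrane from bone marrow stem cells (BMSCs). The MSR1 KO group came from mice with a knockout of the scavenger receptor MSR1, and the MSR1 WT group from wild-type mice, the labels giving 1 strain for both. Each group had 3 mRNA libraries, with 36143518 to 47417448 counts per library. The genotype of the BMSCs is not given in the labels. The study calls the libraries biological replicates, but the labels do not tie them to separate animals or cultures, so p-values measure the spread between these 3 libraries per group, which may be partly technical. Msr1 itself, on chromosome 8 (39581685 to 39642673), had 1825 to 2118 counts per MSR1 KO library, so reads on the gene remained, and 7543 to 9219 per MSR1 WT library (log2 fold change -2.02, standard error (SE) 0.14, adjusted p = 0.00124 by edgeR's quasi-likelihood test). The nearest member, Ndufa13, lies 30.3 Mb away. All 8 macrophage markers of a fixed list were abundant in both groups. All 12 markers of a stromal list were also detected, with a summed level of 1515 to 2011 CPM (counts scaled to the total of each library) in MSR1 KO and 1947 to 2443 CPM in MSR1 WT. With bulk RNA, fewer cells of a type and less RNA per cell cannot be told apart.

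Oxidative phosphorylation passes electrons from NADH through complex I, or from succinate through complex II, to ubiquinone, then through complex III and cytochrome c to complex IV, where oxygen is reduced. Complexes I, III and IV pump protons across the inner mitochondrial membrane, and complex V, the ATP synthase, lets them back and makes ATP. A few core subunits of complexes I, III, IV and V are encoded in mitochondrial DNA and the rest in the nucleus. Every library listed the 37 mitochondrially encoded genes at 0 counts, so only the nuclear part of each complex can be described.

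None of the 79 tested members was higher or lower in MSR1 KO at an adjusted p under 0.05 by edgeR's quasi-likelihood test with Benjamini-Hochberg adjustment, whereas 4.91% of the 16402 tested genes were called (2.25% higher and 2.66% lower). At an unadjusted p under 0.05 there were 5 higher members (8.65% of all tested genes were higher by that rule) and 1 lower member (10.2%). The 5 were Ndufs3, Ndufa7, Ndufv3, Atp5c1 and Atp5sl, and the lower one was Ndufa4l2. DESeq2 called 1 member, Ndufs3, at an adjusted p under 0.05, with 9.54% of 16390 genes called. Under the study's definition of a DEG (fold change above 1.5 and unadjusted p under 0.05), 1 member passed, Ndufa4l2, which was lower. By that definition 8.64% of all tested genes passed, 3.59% higher and 5.05% lower. Of these 6 genes, Ndufa7 was singled out after its values had been seen. With 1 library left out in turn, 71 genes were called without MSR1 WT replicate 1, 203 without MSR1 WT replicate 2, 779 without MSR1 WT replicate 3, and 125, 354 and 334 without MSR1 KO replicates 1, 2 and 3, in place of 805. The number of called members stayed at 0 in these fits except for 1, Ndufv3, without MSR1 WT replicate 2. Under the study's definition, Ndufa4l2 was joined by Ndufv3 without MSR1 KO replicate 2 or MSR1 WT replicate 2, and by Uqcr11 without MSR1 WT replicate 3, which gave 2 members each.

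The differences were small and their errors narrow. The median log2 fold change was 0.01 for complex I, 0.11 for complex II, 0.04 for complex III, 0.08 for complex IV and 0.02 for complex V, beside -0.0023 for all tested genes. The scaling moved all genes together by amounts of this size. With library size alone complexes I and V had -0.02 and -0.01, beside -0.03 for all tested genes. With the GC content and length offset complexes I and III had -0.03 and -0.01, beside 0.03 for all tested genes. Without MSR1 KO replicate 3 the median of complex I was -0.05, and without MSR1 WT replicate 3 it was -0.04. The fold change was under 1.2 in either direction for 71 of the 79 members (89.9%), compared with 62.5% of all tested genes. The 95% interval of the fold change lay within 1.5-fold in both directions for 69 of 79 members, compared with 50.0% of all tested genes. The 10 members whose interval reached further were Ndufa4l2, Ndufa12, Ndufc1 and Ndufv3 of complex I, Uqcr11 of complex III, Cox6a2 and Cox7a1 of complex IV, and Atp5k, Atp5s and Atp5sl of complex V. The median standard error was 0.11 among members and 0.16 among all tested genes.

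**Figure D1:**
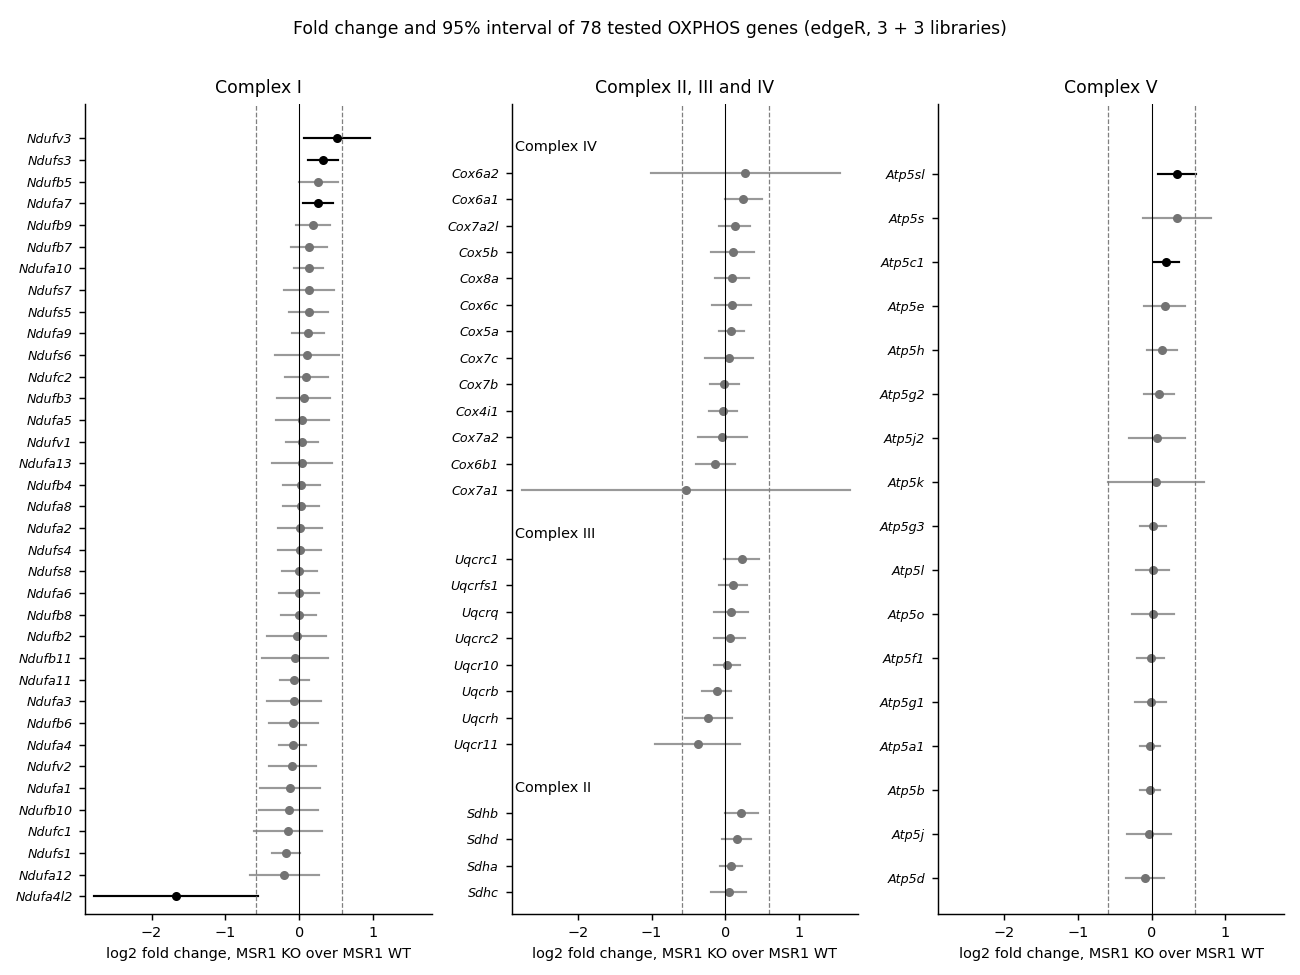
Log2 fold change of MSR1 KO over MSR1 WT (horizontal axis) for 78 of the 79 tested members, in panels by complex. Points are edgeR estimates from 3 + 3 libraries, lines are 95% intervals, black marks an interval that does not include 0, and dashed lines mark a 1.5-fold change. Most intervals sit between the dashed lines, and Ndufa4l2 stands at -1.67.

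The share of the counts taken by each complex, summed over its members, overlapped between the groups. For complex I it was 0.114%, 0.102% and 0.115% in MSR1 KO and 0.115%, 0.111% and 0.103% in MSR1 WT. Complex II took 0.0551 ± 0.0034% in MSR1 KO and 0.0524 ± 0.0008% in MSR1 WT, and complex III took 0.0462 ± 0.0018% and 0.0461 ± 0.0004% (mean ± SD, n = 3). Complex IV took 0.0912 ± 0.0049% and 0.0888 ± 0.0042%, and complex V took 0.169 ± 0.003% and 0.17 ± 0.0048%. The ratio of the group means was between 0.993 for complex V and 1.05 for complex II.

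**Figure D2:**
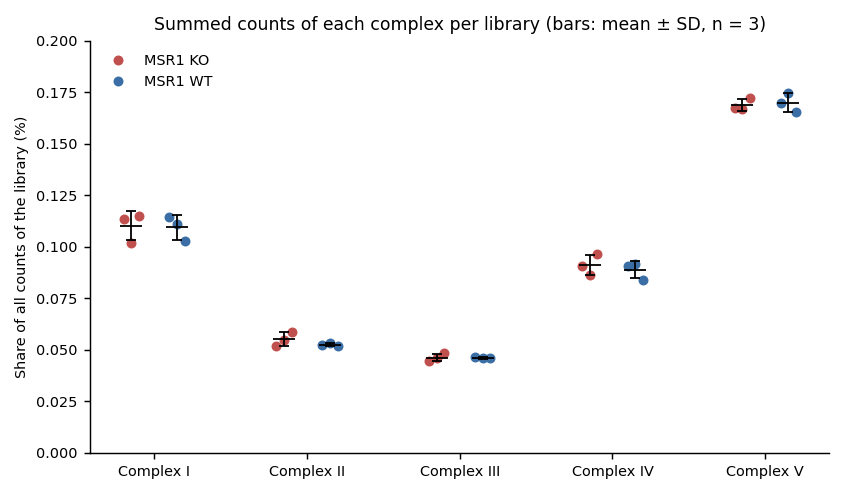
Share of all counts of a library (vertical axis, %) taken by the summed members of each complex. Points are single libraries, and bars are mean ± SD (n = 3). The MSR1 KO and MSR1 WT points overlap in every complex, and heights of different complexes are not comparable because genes differ in number and length.

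Promoter sequences are shown for 1 gene per complex, the subunit gene with the lowest p in it, to set the members' small differences beside the binding motifs of the factors known to drive this gene set. They are RefSeq windows on GRCm38.p6, from 250 bases before to 50 bases after the annotated start, written 5′ to 3′ on the gene's strand, with motif matches in capitals. The motifs searched, on both strands, were GCATGCG for NRF1, CCGGAAG for GABP, GATGGCG for YY1, AAGGTCA for ERR and CCAAT for NF-Y.
Ndufs3 (complex I, chr2:90904672-90904971, minus strand): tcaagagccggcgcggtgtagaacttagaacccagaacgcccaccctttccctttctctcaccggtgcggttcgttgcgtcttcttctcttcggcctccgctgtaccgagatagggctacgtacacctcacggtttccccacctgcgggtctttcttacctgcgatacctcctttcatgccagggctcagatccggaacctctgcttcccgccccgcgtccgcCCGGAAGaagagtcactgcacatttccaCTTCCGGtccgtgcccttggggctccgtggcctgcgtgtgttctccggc
Sdhb (complex II, chr4:140961021-140961320, plus strand): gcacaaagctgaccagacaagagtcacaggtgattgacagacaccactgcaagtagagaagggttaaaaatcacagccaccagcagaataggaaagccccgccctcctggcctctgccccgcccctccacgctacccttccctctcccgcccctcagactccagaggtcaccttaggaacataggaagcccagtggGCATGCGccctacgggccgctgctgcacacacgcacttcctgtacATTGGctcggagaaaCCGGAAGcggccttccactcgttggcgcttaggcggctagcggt
Uqcrc1 (complex III, chr9:108936398-108936697, plus strand): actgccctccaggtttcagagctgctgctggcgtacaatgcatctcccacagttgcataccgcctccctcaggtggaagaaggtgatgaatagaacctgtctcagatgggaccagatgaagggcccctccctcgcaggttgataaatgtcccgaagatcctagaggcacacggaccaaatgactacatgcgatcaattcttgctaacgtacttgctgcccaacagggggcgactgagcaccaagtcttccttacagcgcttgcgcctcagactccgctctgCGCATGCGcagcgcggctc
Cox6a1 (complex IV, chr5:115348909-115349208, minus strand): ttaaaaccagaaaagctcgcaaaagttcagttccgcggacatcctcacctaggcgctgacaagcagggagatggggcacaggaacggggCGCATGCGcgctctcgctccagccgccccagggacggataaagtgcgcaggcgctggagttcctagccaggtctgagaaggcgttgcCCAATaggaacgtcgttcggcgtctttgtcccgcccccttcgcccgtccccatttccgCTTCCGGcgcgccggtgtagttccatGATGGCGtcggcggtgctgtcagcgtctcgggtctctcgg
Atp5c1 (complex V, chr2:10080461-10080760, minus strand): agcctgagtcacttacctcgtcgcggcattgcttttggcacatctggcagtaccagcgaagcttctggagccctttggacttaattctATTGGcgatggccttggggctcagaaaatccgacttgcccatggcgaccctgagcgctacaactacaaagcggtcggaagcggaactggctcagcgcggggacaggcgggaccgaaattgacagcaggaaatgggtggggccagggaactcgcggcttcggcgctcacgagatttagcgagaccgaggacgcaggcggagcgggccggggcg

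In these windows Ndufs3 had 2 matches to the GABP motif, Sdhb had NRF1, NF-Y and GABP matches, and Cox6a1 had NRF1, NF-Y, GABP and YY1 matches. The NRF1 matches in Uqcrc1 and Cox6a1 each read on both strands, since GCATGCG and its reverse complement overlap there in 8 bases. Atp5c1 had a single NF-Y match.

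Windows were found for 69 of the 84 members, 3 of them under a newer symbol, with 75 windows in all. Among those 75 windows, 14.7% held the NRF1 motif, 21.3% the GABP motif, 17.3% the YY1 motif, 10.7% the ERR motif and 42.7% the NF-Y motif. The shares among all 32851 windows of the table were 3.58%, 8.86%, 3.49%, 4.72% and 37.4%. Per gene, 15.9% of members had an NRF1 match, compared with 6.91% of the 10952 tested genes with a window, and the same shares were 23.2% and 19.1% for GABP, 15.9% and 7.02% for YY1, 11.6% and 3.95% for ERR and 44.9% and 42.6% for NF-Y. The median log2 fold change was 0.02 for the 11 tested members with an NRF1 match and 0.04 for the 55 without, and it was 0.07 for the 16 with a GABP match and 0.03 for the 50 without. For YY1 it was 0.12 for the 10 with a match and 0.03 for the 56 without, for ERR 0.04 with and 0.04 without, and for NF-Y 0.04 with and 0.04 without.

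**Figure D3:**
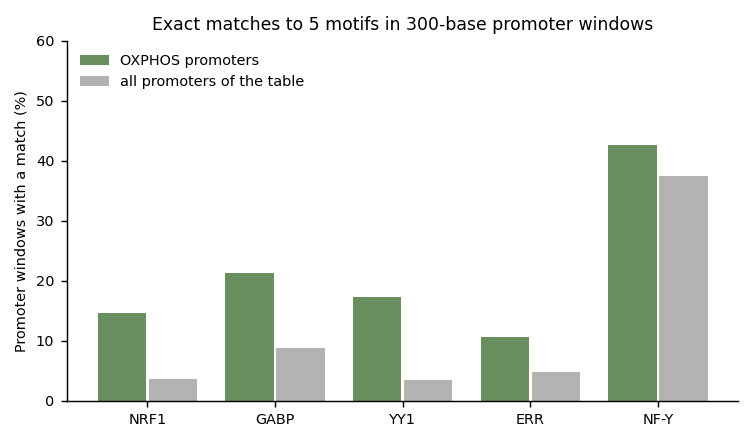
Share of promoter windows with an exact match to each motif (vertical axis, %), for the 75 windows of OXPHOS genes (green) and all 32851 windows of the RefSeq table (grey). The green bars stand at 14.7% for NRF1 and 42.7% for NF-Y, where the grey bars stand at 3.58% and 37.4%.

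Complex I, the entry point for electrons from NADH, had 37 members, all tested, of which edgeR called 0 and DESeq2 1 (4 at an unadjusted p under 0.05 by edgeR). Their log2 fold changes ranged from -1.67 to 0.52, with 21 positive and 16 negative. The core subunits carry the flavin and the iron-sulfur clusters along which electrons travel. Ndufs3, a core subunit of the arm that faces the matrix (ENSMUSG00000005510.9, chromosome 2, 90894634 to 90904827), was at 40.0, 38.5 and 42.2 CPM in MSR1 KO and at 29.5, 32.6 and 34.2 CPM in MSR1 WT. All MSR1 KO libraries were above all MSR1 WT libraries, as for 12.1% of all tested genes. The log2 fold change was 0.33 (SE 0.09, 95% interval 0.13 to 0.53), with an adjusted p of 0.0788 by edgeR and 0.0328 by DESeq2.

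Of the other core subunits, Ndufs1, the large subunit with several iron-sulfur clusters, was at 58.3, 54.9 and 52.3 CPM in MSR1 KO and at 59.4, 66.7 and 61.5 CPM in MSR1 WT. Its groups did not overlap in the opposite direction to Ndufs3 (13.4% of all tested genes were lower in this way), and the log2 fold change was -0.18 (SE 0.08, adjusted p = 0.283 by edgeR). The core subunits named next showed no separation of the groups. Ndufs7, which lies close to the ubiquinone site, had a log2 fold change of 0.13 (95% interval -0.21 to 0.47). Ndufs8, a carrier of iron-sulfur clusters, had 0.00 (-0.23 to 0.24). Ndufv1, which binds NADH and the flavin, had 0.04 (-0.18 to 0.26), and its partner Ndufv2 had -0.09 (-0.41 to 0.22).

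Among accessory subunits of complex I, Ndufv3 (chromosome 17, 31520115 to 31531326) had the largest positive difference. It was at 39.5, 32.8 and 40.3 CPM in MSR1 KO and at 23.1, 35.1 and 20.5 CPM in MSR1 WT. The MSR1 WT libraries differed among themselves, and replicate 2 of MSR1 WT lay inside the range of MSR1 KO. The log2 fold change was 0.52 (SE 0.19, adjusted p = 0.196 by edgeR). Without MSR1 WT replicate 2 it was 0.78, with an adjusted p of 0.0447, which was the only member call in the 6 fits that left out 1 library. Ndufb5, an accessory subunit of the membrane arm, was at 20.8, 26.9 and 24.1 CPM in MSR1 KO and at 19.8, 20.9 and 19.3 CPM in MSR1 WT (log2 fold change 0.26, SE 0.11, adjusted p = 0.272 by edgeR). Ndufa7 was at 35.5, 36.2 and 37.3 CPM in MSR1 KO and at 32.2, 31.8 and 27.7 CPM in MSR1 WT, so its groups did not overlap (log2 fold change 0.25, SE 0.09, adjusted p = 0.171 by edgeR). Ndufa12, another accessory subunit, had -0.20 (95% interval -0.67 to 0.27).

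Ndufa4l2 (ENSMUSG00000040280.10, chromosome 10, 127514967 to 127517154) was, of the 79 tested members, the one with the largest fold change, at a very low level. It is a paralog of Ndufa4 known to be induced by hypoxia. It had 12, 8 and 8 counts in MSR1 KO and 24, 40 and 34 counts in MSR1 WT, so all MSR1 KO libraries were below all MSR1 WT libraries. The log2 fold change was -1.67 (SE 0.48, 95% interval -2.78 to -0.56, unadjusted p = 0.00814, adjusted p = 0.0976 by edgeR). With each library left out in turn it stayed between -1.99 and -1.48. Ndufa4, listed here by its symbol although its protein is now placed in complex IV, was at 34.2, 38.1 and 35.8 CPM in MSR1 KO and at 38.2, 39.3 and 37.6 CPM in MSR1 WT (log2 fold change -0.09, 95% interval -0.27 to 0.09). Per kilobase of transcript, Ndufa4 was at 59.1 ± 3.3 CPM in MSR1 KO and 62.9 ± 1.4 CPM in MSR1 WT, and Ndufa4l2 was at 0.252 ± 0.093 and 0.802 ± 0.155 CPM (SD, n = 3). The stromal list was mixed. Of its 12 genes, 8 had a negative and 4 a positive log2 fold change, none was at 0 counts in all libraries, and its summed level overlapped between the groups. By edgeR 2 were called, both lower, and by DESeq2 2 were called higher (Thy1 and Eng) and 4 lower (Pdgfrb, Cxcl12, Col1a2 and Col3a1). Pdgfrb, a pericyte and stromal receptor, fell by 0.87 on the log2 scale (adjusted p = 0.0249 by edgeR), Cxcl12, a stromal chemokine, fell by 1.11 (adjusted p = 0.0306), and the median over the list was -0.28, whereas Thy1 had 1.31 (adjusted p = 0.0907) and Eng 0.47 (adjusted p = 0.119). The part of such cells in the Ndufa4l2 difference was not tested.

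Complex II, succinate dehydrogenase, is shared with the TCA cycle, and all 4 of its subunits are encoded in the nucleus. All 4 had a positive log2 fold change, from 0.04 to 0.21, and none passed the test by edgeR or DESeq2 (0 at an unadjusted p under 0.05 by edgeR). Sdhb, the iron-sulfur subunit (ENSMUSG00000009863.14, chromosome 4, 140961203 to 140979193), was at 76.7, 75.9 and 86.9 CPM in MSR1 KO and at 61.4, 73.9 and 71.2 CPM in MSR1 WT. The groups did not overlap (log2 fold change 0.21, SE 0.10, adjusted p = 0.284 by edgeR). Sdhd, a membrane anchor, was at 94.7, 112 and 111 CPM in MSR1 KO and at 98.4, 93.0 and 95.1 CPM in MSR1 WT, with replicate 1 of MSR1 KO inside the range of MSR1 WT (log2 fold change 0.15, 95% interval -0.05 to 0.35). Sdha, the catalytic flavoprotein that oxidizes succinate, was at 295, 299.8 and 329 CPM in MSR1 KO and at 298, 289.6 and 289 CPM in MSR1 WT (log2 fold change 0.08, 95% interval -0.08 to 0.23). The other anchor, Sdhc, had a log2 fold change of 0.04 (95% interval -0.19 to 0.28). For each of the 4 genes the interval lay within 1.5-fold in both directions.

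Complex III, which passes electrons from ubiquinol to cytochrome c, had 8 members, 5 with a positive and 3 with a negative log2 fold change, and none passed the test by edgeR or DESeq2 (0 at an unadjusted p under 0.05 by edgeR). Uqcrc1, a core protein of the matrix side (ENSMUSG00000025651.14, chromosome 9, 108936633 to 108949623), was at 119, 143 and 146 CPM in MSR1 KO and at 105, 127 and 118 CPM in MSR1 WT. Replicate 1 of MSR1 KO lay below replicate 2 of MSR1 WT (log2 fold change 0.22, SE 0.10, adjusted p = 0.295 by edgeR). The other core protein, Uqcrc2, had a log2 fold change of 0.06 (95% interval -0.15 to 0.27), and Uqcrfs1, the Rieske iron-sulfur protein, had 0.10 (-0.09 to 0.29). The small subunits Uqcrh, the hinge protein, and Uqcr11 went the other way. Uqcrh was at 57.3, 46.4 and 53.3 CPM in MSR1 KO and at 70.9, 49.9 and 63.9 CPM in MSR1 WT (log2 fold change -0.23, 95% interval -0.55 to 0.08). Uqcr11 was at 17.6, 12.0 and 12.9 CPM in MSR1 KO and at 25.0, 17.5 and 12.6 CPM in MSR1 WT. Its spread among MSR1 WT libraries was wide, and the log2 fold change was -0.38 (SE 0.25, adjusted p = 0.487 by edgeR). Without MSR1 WT replicate 3, Uqcr11 passed as a DEG in the study's sense (log2 fold change -0.59, adjusted p = 0.203 by edgeR), and without MSR1 WT replicate 1 the log2 fold change was -0.09. The remaining 3 members, Uqcr10, Uqcrb and Uqcrq, had log2 fold changes between -0.12 and 0.08.

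Complex IV, cytochrome c oxidase, reduces oxygen, and several of its nuclear subunits exist as a common form and as forms restricted to muscle, lung, testis or hypoxia. Of 18 members, 13 were tested and none passed by edgeR or DESeq2 (0 at an unadjusted p under 0.05 by edgeR), with 8 positive and 5 negative log2 fold changes. Cox6a1 (ENSMUSG00000041697.8, chromosome 5, 115345642 to 115348981), the common form of a regulatory subunit, was at 116, 115 and 137 CPM in MSR1 KO and at 93.6, 117 and 100.02 CPM in MSR1 WT. Replicate 2 of MSR1 WT lay inside the range of MSR1 KO (log2 fold change 0.24, SE 0.11, adjusted p = 0.274 by edgeR). Cox4i1, the common form of the largest nuclear subunit, was at 134, 147 and 157 CPM in MSR1 KO and at 153, 154 and 139.8 CPM in MSR1 WT (log2 fold change -0.03, 95% interval -0.22 to 0.16). Cox5a and Cox5b had log2 fold changes of 0.08 (-0.08 to 0.25) and 0.10 (-0.19 to 0.39), and the groups overlapped for both. Cox6b1, a subunit on the intermembrane-space side, had -0.14 (-0.40 to 0.13), and Cox7a2, Cox7b and Cox8a had -0.04, -0.01 and 0.09. Cox7a2l, a factor that joins complexes III and IV into supercomplexes rather than a subunit, was at 181, 164 and 195 CPM in MSR1 KO and at 179, 165 and 152 CPM in MSR1 WT (log2 fold change 0.13, 95% interval -0.08 to 0.33).

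The restricted forms of complex IV were at or near the detection limit. Cox4i2, a form linked to lung and hypoxia (chromosome 2, 152754173 to 152765037), had 0, 5 and 5 counts in MSR1 KO and 13, 25 and 8 counts in MSR1 WT. All MSR1 KO libraries were below all MSR1 WT libraries, but the gene had too few counts to be tested. Among all 25014 genes with any count, its log2 fold change was -2.09 (SE 1.05, adjusted p = 0.452 by edgeR). Pdgfrb and Cxcl12, given beside Ndufa4l2, were lower too, whereas Thy1 and Eng were not, and their part was not tested. Cox6b2, a testis form, had 5, 9 and 10 counts in MSR1 KO and 37, 9 and 8 counts in MSR1 WT, with a single high library. The muscle forms Cox6a2 and Cox7a1 had 9, 37 and 20 and 12, 0 and 17 counts in MSR1 KO, and 19, 23 and 16 and 6, 23 and 16 counts in MSR1 WT. Their groups overlapped, and their intervals spanned more than 1.5-fold in both directions. Cox7b2, Cox8b and Cox8c had 0 counts in every library, which allows up to 3 counts, or 0.0633 to 0.083 CPM, in a library, and this limit covers counting error only.

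Per kilobase of transcript, the common form exceeded the restricted form in every library and every pair that had counts. In MSR1 WT, Cox4i1 was at 195 ± 10.5 CPM and Cox4i2 at 0.471 ± 0.23 CPM (SD, n = 3). Cox6a1 was at 181 ± 21.3 CPM and Cox6a2 at 0.653 ± 0.075 CPM, and Cox7a2 was at 28.5 ± 2.1 CPM and Cox7a1 at 0.863 ± 0.444 CPM. In MSR1 KO the same pairs were at 191 and 0.106, 215 and 0.789, and 27.6 and 0.594 CPM per kilobase.

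**Figure D4:**
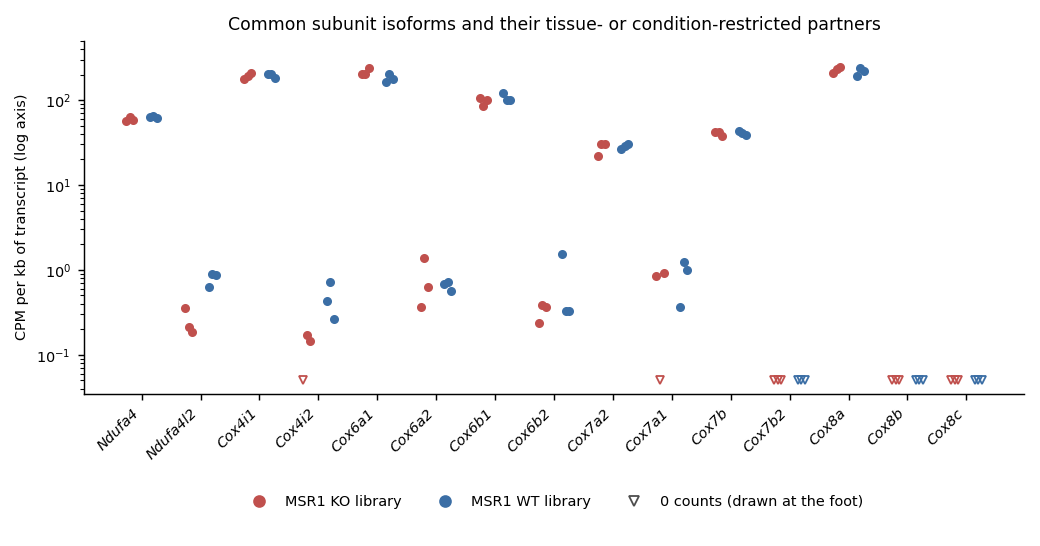
Level of common isoforms and their restricted partners in each library (vertical axis, CPM per kilobase of transcript, log axis), with MSR1 KO in red and MSR1 WT in blue. Open triangles at the foot are libraries with 0 counts. Common forms lie above 20 CPM per kilobase and restricted forms below 2.

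Complex V, the ATP synthase, had 17 members, all tested, with 11 positive and 6 negative log2 fold changes, and none passed the test by edgeR or DESeq2 (2 at an unadjusted p under 0.05 by edgeR). Its catalytic head is built from the alpha and beta subunits around a central shaft, driven by a ring of c subunits in the membrane. Atp5c1, the gamma subunit of the shaft (ENSMUSG00000025781.14, chromosome 2, 10056016 to 10080510), was at 137, 128 and 142 CPM in MSR1 KO and at 124, 117 and 114 CPM in MSR1 WT. The groups did not overlap (log2 fold change 0.20, SE 0.07, 95% interval 0.03 to 0.37, adjusted p = 0.179 by edgeR). The other head and shaft subunits showed no such separation. Atp5a1, the alpha subunit, was at 386, 385 and 384 CPM in MSR1 KO and at 397, 398 and 379.7 CPM in MSR1 WT (log2 fold change -0.02, 95% interval -0.16 to 0.11). Atp5b, the beta subunit that makes ATP, was at 428, 448 and 448 CPM in MSR1 KO and at 440.4, 459 and 448 CPM in MSR1 WT (log2 fold change -0.02, 95% interval -0.16 to 0.11). These were the members with the lowest standard errors, 0.06 each. Atp5d, the delta subunit, had a log2 fold change of -0.09 (-0.35 to 0.17), and Atp5e, the epsilon subunit, had 0.18 (-0.10 to 0.46).

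The 3 genes of the c ring, Atp5g1, Atp5g2 and Atp5g3, encode the same mature protein with different import signals. Their log2 fold changes were -0.01 (-0.22 to 0.19), 0.10 (-0.11 to 0.31) and 0.02 (-0.16 to 0.20), and the groups overlapped for all 3. The stalk and membrane subunits Atp5f1, Atp5h, Atp5j, Atp5j2, Atp5k, Atp5l and Atp5o had log2 fold changes between -0.03 and 0.14. The 2 members with the largest differences are not subunits of the synthase, although their symbols place them here. Atp5sl (Dmac2 in RefSeq), an assembly factor of complex I, was at 24.3, 26.1 and 23.2 CPM in MSR1 KO and at 17.5, 21.7 and 18.9 CPM in MSR1 WT. All MSR1 KO libraries were higher (log2 fold change 0.34, SE 0.11, adjusted p = 0.137 by edgeR). Atp5s (Dmac2l in RefSeq), a coupling factor, was at 3.54, 3.32 and 3.12 CPM in MSR1 KO and at 2.79, 2.87 and 2.20 CPM in MSR1 WT (log2 fold change 0.34, SE 0.20, adjusted p = 0.422 by edgeR). Without Atp5s, Atp5sl and Cox7a2l, the median log2 fold change was 0.02 for complex V and 0.07 for complex IV.

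Across all complexes, all 3 MSR1 KO libraries were above all 3 MSR1 WT libraries for 6 tested members, Ndufs3, Ndufa7, Sdhb, Atp5c1, Atp5s and Atp5sl, and below them for 2, Ndufs1 and Ndufa4l2. For all tested genes these shares were 12.1% and 13.4%. The libraries of 1 group also differed among themselves. Of the 76 members with a mean of at least 1 CPM, 30 were highest in MSR1 KO replicate 3 and 24 were lowest in MSR1 WT replicate 3. The median deviation from the gene's mean was 0.04, -0.05 and 0.10 on the log2 scale for MSR1 KO replicates 1 to 3 and 0.04, -0.01 and -0.09 for those of MSR1 WT.

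In some libraries short and long transcripts differed. In MSR1 KO replicate 2, the 38 members with a transcript of at most 870 bases had a median deviation of -0.11 and the 38 longer members -0.0022. All 465 genes of at most 870 bases and at least 1 CPM, these members included, had -0.07 in that library. In MSR1 KO replicate 3 the short and long members had 0.10 and 0.11, and in MSR1 WT replicate 3 both had -0.09. Over the groups, the median log2 fold change was 0.02 for the short and 0.04 for the long members. It was 0.07 for all 465 short genes. With an offset for GC content and transcript length in the fit, the median log2 fold change was -0.03 for complex I, 0.10 for complex II, -0.01 for complex III, 0.03 for complex IV and 0.06 for complex V, and no member was called.

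**Figure D5:**
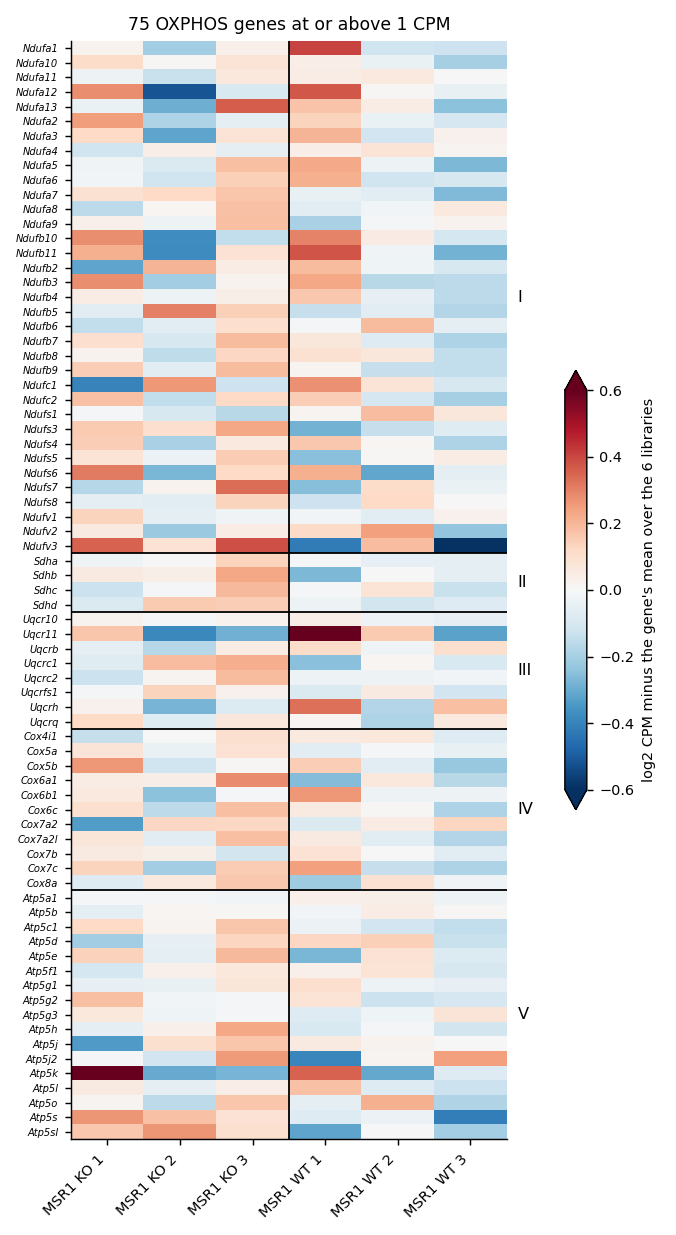
Log2 CPM of 75 members minus each gene's mean over the 6 libraries (colour, red high and blue low), with genes in rows by complex and libraries in columns. MSR1 KO replicate 3 is mostly red and MSR1 WT replicate 3 mostly blue, and no complex shows all MSR1 KO columns of one colour against all MSR1 WT columns of the other.

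The other genes of the pathway were described by fixed lists, and edgeR called none of their members at an adjusted p under 0.05. DESeq2 called 1, Coq2, with a higher level in MSR1 KO. For complex I assembly together with Ndufab1, 0 of 16 were called, with a median log2 fold change of 0.05. The count was 0 of 4 for complex II assembly (0.02), 0 of 7 for cytochrome c1 and complex III assembly (0.05), 0 of 23 for complex IV assembly (0.10) and 0 of 6 for complex V assembly and its inhibitor (0.03). At an unadjusted p under 0.05, edgeR had 4 higher genes among the 56 of these lists (7.14%, beside 8.65% of all tested genes). They were Sco1, which delivers copper, Cox15, which makes heme a, Coa5 and Coa7, all among the 23 tested genes of the complex IV list. In that list 26.1% of genes had all MSR1 KO libraries above all MSR1 WT libraries, beside 12.1% of all tested genes. Its summed level was 563 to 628 CPM in MSR1 KO and 509 to 535 CPM in MSR1 WT. Coa5 alone had a mean of 209 CPM in MSR1 KO and 161 CPM in MSR1 WT. Sco1 had 330, 530 and 525 raw counts in MSR1 KO and 286, 413 and 358 in MSR1 WT. Scaled to library totals, its groups did not overlap, with MSR1 KO higher (log2 fold change 0.48, SE 0.17, adjusted p = 0.18).

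Of 19 electron carriers and feeders of the chain, edgeR called none and 3 were higher at an unadjusted p under 0.05 by edgeR. Of all tested genes, 8.65% were higher by that rule. Cycs, which encodes cytochrome c, had 1672, 2315 and 2206 raw counts in MSR1 KO and 1334, 1939 and 1772 in MSR1 WT. Scaled to library totals, all MSR1 KO libraries were above all MSR1 WT libraries (log2 fold change 0.39, SE 0.13, adjusted p = 0.152). Coq2, an enzyme of ubiquinone synthesis, had a log2 fold change of 0.42 (SE 0.11, adjusted p = 0.0845), and Gpd2, the glycerol-phosphate dehydrogenase that feeds ubiquinone, had 0.38 (SE 0.14, adjusted p = 0.194). These 3 genes and the 4 of complex IV assembly were singled out after their values had been seen.

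Of 16 tested regulators of mitochondrial biogenesis none was called by edgeR or DESeq2, and their median log2 fold change was -0.04. At an unadjusted p under 0.05 by edgeR 1 was lower, Tfb2m, where 10.2% of all tested genes were lower by that rule. Nrf1, Gabpa, Yy1 and Esrra, whose motifs were searched above, had log2 fold changes of -0.07, -0.08, -0.02 and -0.07. Tfam, which packages and transcribes mitochondrial DNA, had 0.19 (95% interval -0.03 to 0.41), and Tfb2m, a mitochondrial transcription factor, had -0.30 (-0.53 to -0.07, adjusted p = 0.148 by edgeR). Ppargc1a, which encodes PGC1α, had 0 counts in all MSR1 KO libraries and 0, 5 and 5 counts in MSR1 WT and was too low to be tested, and at this depth no difference could be detected. Its relative Ppargc1b had 102, 104 and 102 counts in MSR1 KO and 74, 81 and 125 in MSR1 WT (log2 fold change 0.23, 95% interval -0.43 to 0.88).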

How the data were processed

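RNA-seq libraries of 3 MSR1 KO and 3 MSR1 WT macrophages were compared. The authors deposited raw counts per gene and library. The same table holds a signal column per library that the authors made by dividing counts by a size factor, which was not used here, and the fold changes and p-values of the authors' own comparison, which were not used either. The paper names TopHat and FPKM values, whereas the submitters' processing notes name fastp 0.17.1, HISAT2 2.1.0, DESeq2 1.18.1 and R 3.4.3, and the deposited values are whole counts. Not given in the sources used here are the counting program, whether it used strand, and the genome build. Of 52550 gene identifiers, 52403 were in GENCODE M21 and 49909 matched it in start and end (71 of the 84 members), so positions are given on GRCm38. Reads shared with near-identical copies could be split by the counting, and 6 pseudogene rows of these families were left out.

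Counts were filtered with filterByExpr, scaled by TMM and fitted with edgeR 4.0.16 (glmQLFit, then glmQLFTest, in R 4.3.3) on all genes, with Benjamini-Hochberg adjustment over 16402 genes. Each SE is the absolute log2 fold change divided by the root of F, and 95% intervals use the t distribution with the fit's degrees of freedom. CPM values use TMM-scaled totals, and CPM per kilobase uses the APPRIS principal transcript. The script was tested on simulated data. Alternatives were DESeq2 1.42.0, DESeq2's size factors, library size alone, no filter, a minimum of 10 counts per library, a replicate block, a GC content and length offset, each library left out, fewer members and a shorter promoter window. Within-group library pairs differed beyond sampling noise (chi-square per degree of freedom from 20.0 to 38.8).

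Genes with counts were also described by lists (assembly factors, carriers, regulators, TCA cycle, glycolysis, ribosomal proteins, respiratory inhibitors, and markers of macrophages, stromal cells, neutrophils, B cells and erythroid cells). Named genes were the catalytic subunits, the restricted isoforms and their common partners, in each complex the 3 members with the largest fold change at 1 CPM or more, called genes of the other lists, Ppargc1a and Msr1. Other genes named were chosen after their values were seen. The members, lists and tests were chosen with earlier results of these data known. For 1 member no values are reported here, although the counts and medians over members include it.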

Additional observations from a re-analysis of the deposited data

How the results depend on the processing

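The all-gene median log2 fold change moved by at most 0.0319 under any scaling. The medians of complexes II and IV stayed positive in all alternatives, whereas that of complex I was below 0 with library size alone (-0.019, all genes -0.0342), with the GC content and length offset (-0.0274, all genes 0.0256) and without MSR1 KO replicate 3 (-0.0545) or MSR1 WT replicate 3 (-0.0423), that of complex III with the offset (-0.00743) and that of complex V with library size alone (-0.0137). The number of members higher at an adjusted p under 0.05 was 0 by edgeR, 1 (Ndufs3, log2 fold change 0.33, adjusted p = 0.0328) by DESeq2, and 0 to 1 with 1 library left out (Ndufv3 without MSR1 WT replicate 2, 0.78, adjusted p = 0.0447). Members meeting the study's definition numbered 0 with at least 10 counts in every library, where Ndufa4l2, Cox6a2 and Cox7a1 were not tested, and 1 to 2 with 1 library left out. The all-gene count of calls, 805, became 1563 by DESeq2, 525 without a filter, 71 to 779 with 1 library left out and 137 with the replicate block. With the replicate block 0 members were called, and the complex medians were 0.01, 0.11, 0.04, 0.08 and 0.02. Same-numbered libraries had correlations of deviations of -0.026, 0.019 and -0.0048, within the range of differently numbered pairs (-0.034 to 0.037). No sign of pairing by number was seen. Whether same-numbered libraries shared a culture or preparation was not tested.

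With 1 library left out, the median log2 fold change ran from 0.00611 to 0.0924 for complex V, highest without MSR1 KO replicate 2, and from 0.00895 to 0.0836 for complex IV, lowest without MSR1 WT replicate 3. In a window of 100 bases, 12% of member promoters held the GABP motif, 4% YY1, 4% ERR, 25.3% NF-Y and 8% NRF1, beside 4.52%, 0.84%, 1.49%, 18.9% and 1.81% of all windows.

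Of 40 named members tested, 15 changed sign under some alternative and 25 under none. With library size alone the log2 fold change was -0.0137 for Atp5g3 and -0.0287 for Ndufs8. With the GC content and length offset it was 0.0576 for Atp5g1, -0.0421 for Atp5g3 and -0.0409 for Ndufs8. With 1 library left out it ran from -0.0386 to 0.00442 for Atp5b, -0.0513 to 0.0333 for Atp5g1, -0.0157 to 0.0615 for Atp5g3, -0.0802 to 0.0374 for Cox4i1, -0.00685 to 0.201 for Cox5b, -0.372 to 0.612 for Cox6a2, -1.04 to 0.0407 for Cox7a1, -0.117 to 0.0998 for Cox7a2 and -0.0468 to 0.0415 for Cox7b. The same ranges were -0.0135 to 0.246 for Ndufs7, -0.0599 to 0.0676 for Ndufs8, -0.0113 to 0.077 for Ndufv1, -0.218 to 0.0133 for Ndufv2, -0.0432 to 0.123 for Sdhc and -0.0241 to 0.139 for Uqcrc2. The cause of these changes was not tested. Depth limits Cox6a2 and Cox7a1, which had 0 to 37 counts per library.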

Other observations

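Of 18 glycolysis genes tested, edgeR called 0 at an adjusted p under 0.05, with a median log2 fold change of -0.19. At an unadjusted p under 0.05, 2 were higher and 6 lower in MSR1 KO, where 8.65% of all tested genes were higher and 10.2% lower by that rule. The higher genes were the hexokinases Hk2 (0.30) and Hk3 (0.69, adjusted p = 0.0936), and the lower genes were Pfkl (-0.19), Aldoa (-0.18), Pgk1 (-0.22), Pgam1 (-0.34, adjusted p = 0.0613), Eno1 (-0.25) and Ldha (-0.15). DESeq2 called Hk3 and Pgam1. Of 17 TCA cycle genes, edgeR and DESeq2 called 0, the median was 0.00119, and all 17 intervals lay within 1.5-fold. Dlst, a subunit of the oxoglutarate dehydrogenase complex, had -0.18 and was the 1 gene at an unadjusted p under 0.05.

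Among inhibitors of respiration that macrophages make, Acod1, the enzyme that makes itaconate, had 1545, 2562 and 843 counts in MSR1 KO and 435, 790 and 612 in MSR1 WT, so all MSR1 KO libraries were above all MSR1 WT libraries. Its log2 fold change was 1.58 (SE 0.40, adjusted p = 0.0665 by edgeR), and DESeq2 called it. Nos2, the inducible nitric oxide synthase, had 12, 22 and 31 counts in MSR1 KO and 5, 10 and 24 in MSR1 WT. Its log2 fold change was 0.77 (adjusted p = 0.594 by edgeR). The remaining gene of this list of 3, AA467197, had 122, 117 and 111 counts in MSR1 KO and 118, 111 and 147 in MSR1 WT. Its log2 fold change was -0.0069 (adjusted p = 0.993 by edgeR).

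Of 80 cytosolic ribosomal protein genes, edgeR called 0, 68 had a positive log2 fold change, the median was 0.12, and 12 were higher and 1 lower (Rpl39l, -0.93, adjusted p = 0.0685) at an unadjusted p under 0.05. Of 78 mitochondrial ribosomal protein genes, edgeR called 0, the median was 0.0549, and 8 were higher and 2 lower at that p, among them Mrps6 (-0.64, adjusted p = 0.0596). At an unadjusted p under 0.05 by edgeR, 8.65% of all tested genes were higher and 10.2% lower. A positive log2 fold change was found for 85% of the cytosolic list, 67.9% of the mitochondrial list and 49.6% of all tested genes. DESeq2 called Rpl39l and Mrps6. Of 8 macrophage markers edgeR called 1, the Fc receptor Fcgr1 (1.14, adjusted p = 0.0182). Of 7 neutrophil markers it called 0 (median 0.35), 1 of 4 B cell markers was tested, and 0 of 5 erythroid markers were. The genes at an unadjusted p under 0.05 were picked out after their values had been seen.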
